A study of Mus musculus with 8 samples.

Results

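The AP-1 and immediate early genes Jun, Junb, Jund, Fos, Fosb, Fosl1, Fosl2, Atf3, Egr1 and Ier2 were followed by RNAseq in intestinal epithelial cells (IECs) of mice with and without DDX5, an RNA helicase. These 10 genes were chosen by name from the 40178 genes listed in the colon and ileum tables together, and each of them had reads in all 8 libraries. IECs had been released from the gut wall with EDTA, and RNA was taken from the colon and the ileum of the same 4 mice. WTIEC mice were Ddx5+/+ and DDX5ΔIEC mice were Ddx5fl/fl, both carried the Villin1Cre transgene, which acts in the intestinal epithelium, and the labels give an age of 8 weeks for all of them. Each genotype was represented by 2 mice in each tissue, so every group had n = 2 libraries. The paper describes the mice of the 2 genotypes as pairs of cohoused littermates.

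AP-1 is a transcription factor formed by a pair of proteins joined through leucine zippers. A JUN protein (Jun, Junb, Jund) pairs with another JUN protein, with a FOS protein (Fos, Fosb, Fosl1, Fosl2) or with an ATF protein such as ATF3, and the pair binds short DNA elements named the TPA response element (TRE) and the cAMP response element (CRE). Most of these genes are induced quickly and briefly by growth factors, stress and tissue handling, through MAP kinases and the serum response factor SRF. Jund is known for a steadier level in resting cells than Jun and Junb. In the gut epithelium JUN and FOS proteins are known to act in crypt proliferation, repair and tumor growth.

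The sequences before the transcription starts of Jun, Fos, Fosb and Atf3 are shown because these 4 genes were lower in the ileum than in the colon in both genotypes. Each run is the 250 bases before the RefSeq start on GRCm38.p6, 5′ to 3′ on the strand of the gene, and capitals mark the core of a CRE (TGACG on either strand), the CRE-like site TGACATCA and the TATA box TATAAA. The runs lie at chr4:95052223-95052472 (minus strand) for Jun, chr12:85473640-85473889 (plus strand) for Fos, chr7:19310046-19310295 (minus strand) for Fosb and chr1:191183334-191183583 (minus strand) for Atf3.
Jun: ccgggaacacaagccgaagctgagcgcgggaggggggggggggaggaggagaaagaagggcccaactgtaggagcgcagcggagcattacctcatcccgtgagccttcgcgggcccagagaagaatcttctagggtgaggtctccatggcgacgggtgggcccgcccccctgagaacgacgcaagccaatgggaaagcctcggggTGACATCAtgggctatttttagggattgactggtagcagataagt
Fos: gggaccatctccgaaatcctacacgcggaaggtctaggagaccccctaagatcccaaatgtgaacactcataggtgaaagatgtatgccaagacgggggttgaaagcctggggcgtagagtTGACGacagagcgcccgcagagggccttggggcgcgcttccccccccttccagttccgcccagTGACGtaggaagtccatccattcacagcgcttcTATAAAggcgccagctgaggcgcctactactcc
Fosb: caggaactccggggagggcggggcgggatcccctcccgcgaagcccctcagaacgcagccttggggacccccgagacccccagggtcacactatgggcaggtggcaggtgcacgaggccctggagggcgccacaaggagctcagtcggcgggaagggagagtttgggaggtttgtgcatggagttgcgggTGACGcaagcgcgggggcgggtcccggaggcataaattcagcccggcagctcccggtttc
Atf3: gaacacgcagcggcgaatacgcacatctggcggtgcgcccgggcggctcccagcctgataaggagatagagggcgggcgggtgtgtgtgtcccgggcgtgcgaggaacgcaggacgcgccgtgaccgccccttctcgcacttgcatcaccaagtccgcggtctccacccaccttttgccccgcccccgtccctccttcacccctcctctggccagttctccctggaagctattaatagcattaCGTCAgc

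TGACATCA began 45 bases before the start of Jun. The CRE core began 66 and 129 bases before the start of Fos, 60 bases before that of Fosb and 7 bases before that of Atf3. TATAAA began 33 bases before the start of Fos. Over windows that also take in the 50 bases after the start, 23.0% of the 27025 genes with a RefSeq promoter held TGACG on either strand. TGACATCA was in 4.18% of them and TATAAA in 15.7%, both strands searched. The complete TRE (TGACTCA, both strands) was in 5.95% of them and the complete CRE (TGACGTCA, which contains the core on both strands) in 2.03%. A CArG box, the sequence bound by SRF, was in 1.81% of them. The windows of the 7 members with a RefSeq promoter held none of these 3. For Jund that window, chr8:70697489-70697788, lies upstream of the transcript start at chr8:70698949 given below, and the sequence next to that start was not searched. A match describes letters and not binding, and the serum response element known for Fos lies further upstream than these windows reach.

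Total counts per library ranged from 11571061 to 22984283. Ddx5 checked the labels: it was at 770.1 and 705 CPM (counts scaled to a common library size) in the WTIEC colon libraries, 367 and 354 CPM in DDX5ΔIEC colon, 699 and 699 CPM in WTIEC ileum and 339 and 326 CPM in DDX5ΔIEC ileum. The summed level of 7 epithelial marker genes was 8569 to 15572 CPM and none of these markers was at 0, while 15 leukocyte markers summed to 11.1 to 121 CPM and 8 markers of stroma and vessels to 4.64 to 18.2 CPM. Reads of 3 repeat-like genes made up 19.5% of DDX5ΔIEC ileum library 2, which stands apart in this, and at most 4.04% of every other library. In these bulk samples, fewer cells of a type and less RNA per cell cannot be told apart.

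Levels of the 10 genes differed widely between the members. CPM were scaled for library size and composition by the TMM method over all 8 libraries. Fos was the highest member in the colon, at 749.7 and 659 CPM in WTIEC and 816 and 583 CPM in DDX5ΔIEC. Fosl1, which encodes FRA1 and is known mainly from wounded and transformed epithelium, was the lowest, at 0.277 to 1.47 CPM, which were 4 to 28 counts a library. The other members had at least 432 counts in every library. On the opposite strand, 52.6% of the short sequence words of the Fosl1 transcript lie in the protein-coding gene Ccdc85b. Ccdc85b had 22 to 149 counts a library, more than Fosl1 in each library. Without a stated strand setting, reads of Fosl1 and Ccdc85b cannot be told apart where they overlap.

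**Figure D1:**
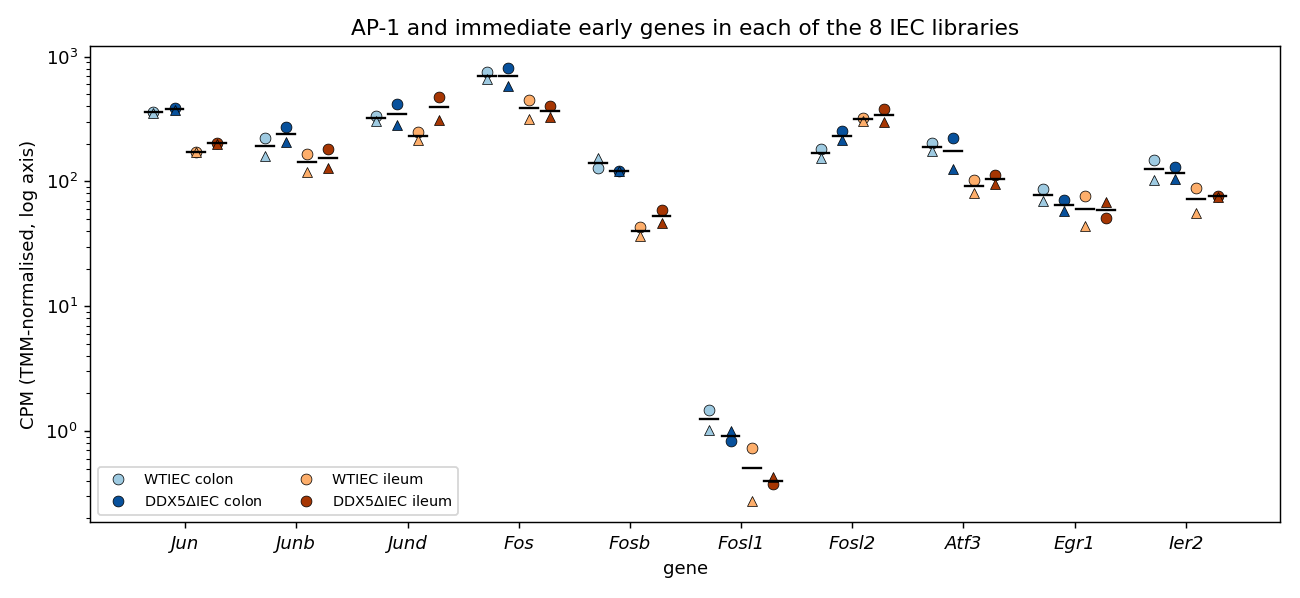
CPM of each gene on a log axis in the 8 libraries, with circles for libraries numbered 1, triangles for libraries numbered 2 and a bar at each group mean (n = 2). Jun, Fos, Fosb and Atf3 sit lower in the ileum (orange and brown) than in the colon (blue), Fosl2 sits higher, and both Jund points of the DDX5ΔIEC ileum, at 309.9 and 477 CPM, lie above both WTIEC ileum points.

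To compare genes with each other, CPM were divided by the exon length in kilobases that the tables give. On this per-length scale Fos came first and Jund second in WTIEC colon, at 299 ± 27 and 192 ± 13 (SD, n = 2), followed by Jun at 113 ± 1.3, and neither of these 2 neighbouring pairs overlapped. Atf3, Junb and Ier2 came next, at 87.9, 83.6 and 82.3, and overlapped one another. Fosb, Egr1 and Fosl2 were at 22.5, 17.4 and 17.4, and Fosl1 at 0.726.

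The order changed at the top in the ileum. In WTIEC ileum Fos, at 192 and 136, and Jund, at 148 and 128, overlapped. In DDX5ΔIEC ileum Jund ranked first, with 286 and 186 against 170.3 and 139 for Fos. The 2 genes did not overlap on the deposited exon lengths, 1668 bases for Jund and 2352 for Fos. The longest Fos transcript is 2108 bases, and this shorter length would raise Fos on the per-length scale. The lack of overlap therefore depends on the length used. In DDX5ΔIEC colon Fos and Jund overlapped, with Fos first by its mean. Fosl2 lay below Fosb in WTIEC colon and above it in the other 3 groups.

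The tissue comparison asked how the genes differed between ileum and colon within a genotype, in one edgeR quasi-likelihood fit over the 8 libraries. In WTIEC, 6 of the 10 genes passed an adjusted p-value of 0.05 (Benjamini-Hochberg over 16178 genes), 5 lower in the ileum (Jun, Fos, Fosb, Atf3, Ier2) and 1 higher (Fosl2). Of all genes tested, 34.2% passed. In DDX5ΔIEC, 5 of the 10 passed against 35.3% of all genes, and these were the WTIEC ones without Ier2. With the mouse as a block 8 passed in WTIEC, with Junb and Jund added, and 7 in DDX5ΔIEC, with Junb and Ier2 added. The shares of 34.2% and 35.3% belong to the fit without this block. They are therefore no measure for the 8 and 7, and the share of all genes in the blocked fit is not given here. Fits between tissues that left out a library, given below, also had no mouse block. The median log2 fold change of the 10 genes, ileum over colon, was −0.83 in WTIEC and −0.69 in DDX5ΔIEC, beside −0.02 and −0.04 over all genes.

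**Figure D2:**
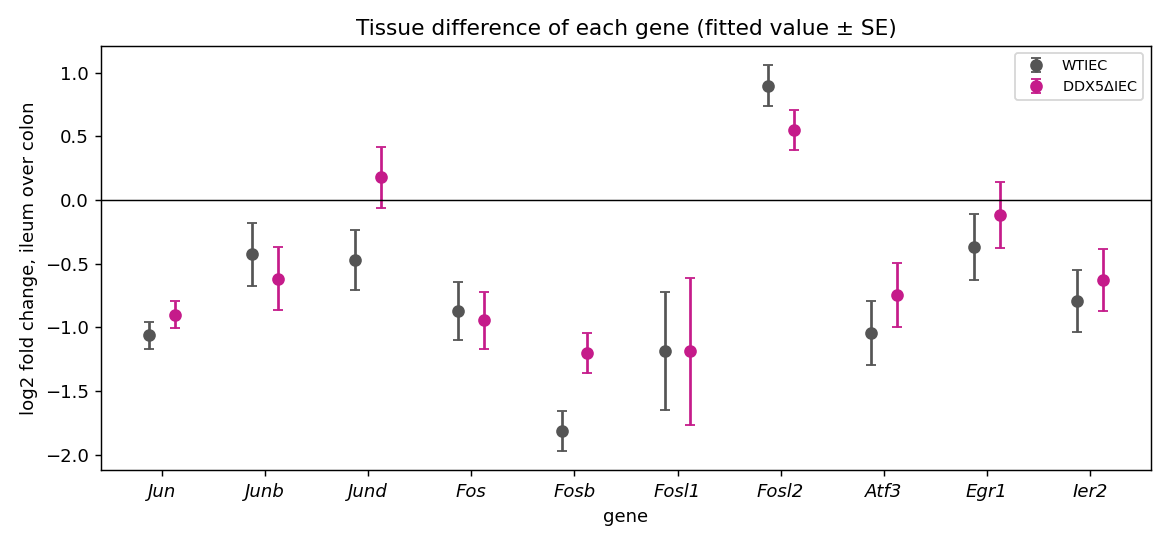
Fitted log2 fold change of each gene, ileum over colon, with SE bars, in WTIEC (grey) and DDX5ΔIEC (pink). Fosb lies lowest among the well-counted genes, at −1.81 and −1.20, Fosl2 lies above 0 in both genotypes, and Jund lies below 0 in WTIEC (−0.47) and above 0 in DDX5ΔIEC (0.18).

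Jun, the founding member of the family and a target of the kinase JNK, was at 362 and 356 CPM in WTIEC colon and at 173 and 171 CPM in WTIEC ileum. In DDX5ΔIEC it was at 386 and 370.3 CPM in the colon and at 205 and 200.2 CPM in the ileum. The tissues did not overlap and libraries of a group lay close together. The log2 fold change was −1.06 (SE 0.11, adjusted p = 0.000146, edgeR) in WTIEC and −0.90 (SE 0.11, adjusted p = 0.000339) in DDX5ΔIEC.

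Junb, often an antagonist of Jun, was at 224 and 161 CPM in WTIEC colon, 167 and 119.6 CPM in WTIEC ileum, 271 and 206 CPM in DDX5ΔIEC colon and 182 and 129 CPM in DDX5ΔIEC ileum. Its tissue difference did not pass in either genotype, with −0.42 (SE 0.25, adjusted p = 0.228, edgeR) in WTIEC and −0.62 (SE 0.25, adjusted p = 0.0868) in DDX5ΔIEC. With the mouse as a block, which uses that both tissues came from the same animal, the adjusted p-values were 0.0145 and 0.00304.

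Jund was at 335 and 305 CPM in WTIEC colon and 248 and 214 CPM in WTIEC ileum, and the tissues did not overlap. It was at 415 and 281 CPM in DDX5ΔIEC colon and 477 and 309.9 CPM in DDX5ΔIEC ileum, where they did. Neither difference passed, with −0.47 (SE 0.24, adjusted p = 0.167, edgeR) in WTIEC and 0.18 (SE 0.24, adjusted p = 0.595) in DDX5ΔIEC. With the mouse as a block the WTIEC value was −0.47 with an adjusted p of 0.0139 and the DDX5ΔIEC value 0.17 with an adjusted p of 0.251. The sign in DDX5ΔIEC turned without DDX5ΔIEC ileum library 1 (−0.17), without DDX5ΔIEC colon library 2 (−0.08) and with the trend on GC content described below taken out (−0.01).

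Among the FOS genes, Fos, the main FOS partner of JUN proteins, fell from 749.7 and 659 CPM in WTIEC colon to 451 and 319 CPM in WTIEC ileum, a log2 fold change of −0.87 (SE 0.23, adjusted p = 0.0178, edgeR). In DDX5ΔIEC it went from 816 and 583 CPM to 400.4 and 326 CPM, a log2 fold change of −0.94 (SE 0.23, adjusted p = 0.0124). The tissues did not overlap in either genotype. The WTIEC call did not hold without WTIEC colon library 1 or 2 or without WTIEC ileum library 2, and the DDX5ΔIEC call not without DDX5ΔIEC colon library 1 or DDX5ΔIEC ileum library 2. The values stayed between −1.15 and −0.64 in WTIEC and between −1.17 and −0.69 in DDX5ΔIEC when any one library was left out.

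Fosb had the steepest tissue difference of all members in both genotypes. It was at 128 and 153 CPM in WTIEC colon and at 43.4 and 36.3 CPM in WTIEC ileum, and at 121 and 121 CPM in DDX5ΔIEC colon and 59.2 and 46.1 CPM in DDX5ΔIEC ileum. The colon libraries lay at least 2 times above the ileum libraries of the same genotype. The log2 fold change was −1.81 (SE 0.16, adjusted p = 7.02e-05, edgeR) and −1.20 (SE 0.15, adjusted p = 0.000574), and both passed without any one library.

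Fosl2, which encodes FRA2 and gives a longer-lived FOS protein, went the other way. It was at 183 and 154 CPM in WTIEC colon and 323 and 305 CPM in WTIEC ileum, and at 253 and 213 CPM in DDX5ΔIEC colon and 381 and 301 CPM in DDX5ΔIEC ileum. The log2 fold change was 0.90 (SE 0.16, adjusted p = 0.00296, edgeR) in WTIEC, which passed without any one library, and 0.55 (SE 0.16, adjusted p = 0.0275) in DDX5ΔIEC. The DDX5ΔIEC call was lost without DDX5ΔIEC ileum library 1 (0.36, adjusted p = 0.123) or DDX5ΔIEC colon library 2 (0.43, adjusted p = 0.144), without either WTIEC ileum library or WTIEC colon library 2 (adjusted p = 0.0502 to 0.0527, with the value at 0.54 to 0.55), with upper-quartile scaling (0.45, adjusted p = 0.0505) and with the GC trend taken out (0.41, adjusted p = 0.132). Fosl1 had a log2 fold change of −1.19 in both genotypes, with an SE of 0.47 in WTIEC and 0.58 in DDX5ΔIEC, and did not pass. The WTIEC value was −2.13 without WTIEC ileum library 1 and −0.74 without WTIEC ileum library 2. The part of reads from the overlapping gene Ccdc85b in the Fosl1 values was not tested.

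Atf3, a stress-induced ATF protein that can repress its targets, was at 204 and 175 CPM in WTIEC colon, 102 and 81.3 CPM in WTIEC ileum, 223 and 125 CPM in DDX5ΔIEC colon and 112 and 95.8 CPM in DDX5ΔIEC ileum. Its log2 fold change was −1.04 (SE 0.25, adjusted p = 0.013, edgeR) and −0.74 (SE 0.25, adjusted p = 0.0489). The DDX5ΔIEC call was near the threshold and was lost in 7 of the 8 fits without one library, all except the one without DDX5ΔIEC colon library 2, and its values there ran from −1.10 to −0.28. It was also lost with RLE scaling (adjusted p = 0.0588) and without the 3 repeat-like genes (adjusted p = 0.0521). The WTIEC call was lost without WTIEC colon library 1 or WTIEC ileum library 2, where all values ran from −1.22 to −0.89.

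Egr1, a zinc finger factor induced by the same signals as Fos, was at 87.1 and 69.1 CPM in WTIEC colon, 76.4 and 44.2 CPM in WTIEC ileum, 70.5 and 58.3 CPM in DDX5ΔIEC colon and 50.8 and 67.8 CPM in DDX5ΔIEC ileum. The tissues overlapped in both genotypes and neither difference passed. Ier2, a nuclear immediate early protein, was at 149 and 102 CPM in WTIEC colon and 88.5 and 55.5 CPM in WTIEC ileum, with a log2 fold change of −0.80 (SE 0.24, adjusted p = 0.0353, edgeR) that did not pass without WTIEC colon library 1 or WTIEC ileum library 2. In DDX5ΔIEC Ier2 was at 131 and 104 CPM in the colon and 76.7 and 75.6 CPM in the ileum, a log2 fold change of −0.63 (SE 0.24, adjusted p = 0.0803) that passed with the mouse as a block (adjusted p = 0.0054).

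Markers of other cells were also compared between the tissues, where 34.2% of all genes were called in WTIEC and 35.3% in DDX5ΔIEC. The leukocyte markers summed to 40.9 and 55.9 CPM in WTIEC colon against 99.8 and 118 CPM in WTIEC ileum, with 3 of 12 tested higher in the ileum, and to 11.1 and 23.7 CPM in DDX5ΔIEC colon against 72.6 and 121 CPM in DDX5ΔIEC ileum, with 6 of 12 higher. Of the stroma and vessel markers, 4 of 6 tested were lower in WTIEC ileum and 1 of 6 in DDX5ΔIEC ileum. Their part in the tissue differences of the AP-1 genes was not tested.

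The genotype comparison asked which transcripts depend on DDX5 in the epithelium of each tissue. A gene met the criterion that the study uses when its log2 fold change was 0.5 or more, up or down, and its unadjusted p-value was below 0.05. Calls at an adjusted p-value below 0.05 were counted separately. In the ileum Jund was the 1 of 9 tested members that met the criterion, higher in DDX5ΔIEC, where 7.35% of all 14068 genes met it. In the colon 0 of 10 members met it, against 6.71% of all 15362 genes. At the adjusted p-value 0 members passed in either tissue, where 0.697% of all genes passed in the ileum and 0% in the colon with edgeR. Ddx5, the deleted gene, itself did not pass in the colon (−1.04, adjusted p = 0.0866, edgeR) and passed in the ileum (−1.07, adjusted p = 0.027). The 0 in the colon therefore does not show that the members were unchanged. At an unadjusted p-value under 0.05, 3 members were in the colon and 2 in the ileum, beside 12% and 12.3% of all genes. Over all colon genes 1836 had an unadjusted p-value under 0.05, and DESeq2 called 116 genes at the adjusted p-value. DESeq2 called 0 members in the colon and 1 in the ileum, Jund. For 2 libraries against 2, an exact permutation test cannot go below p = 0.333.

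**Figure D3:**
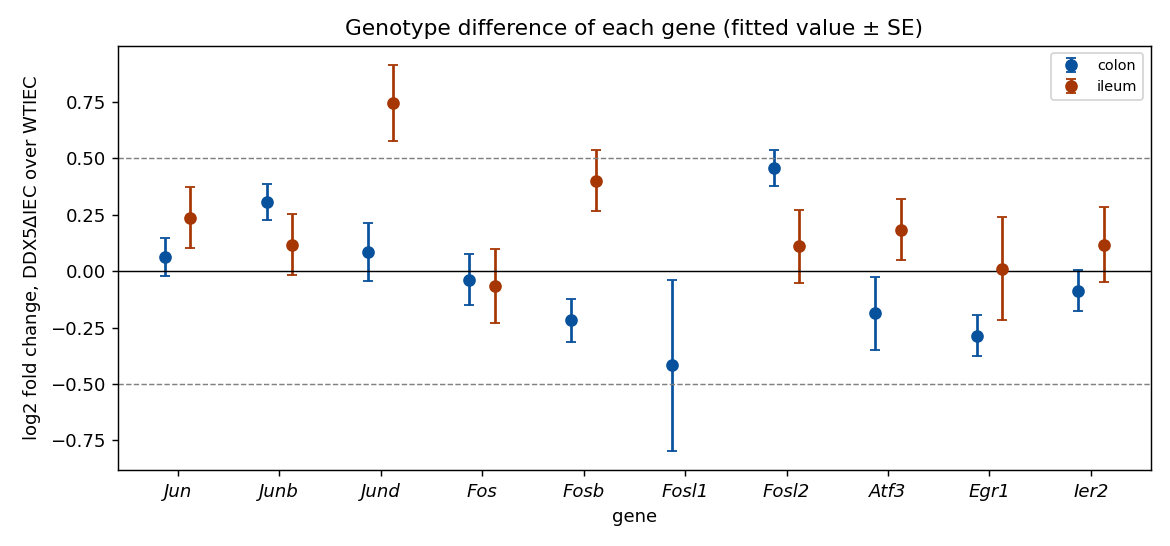
Fitted log2 fold change of each gene, DDX5ΔIEC over WTIEC, with SE bars, in the colon (blue) and the ileum (brown), and dashed lines at the criterion of 0.5 either way. Jund in the ileum, at 0.74, is the one point beyond a dashed line, Fosl2 in the colon comes close at 0.46, and Fosl1 is shown in the colon only because it was too low to test in the ileum.

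Jund was at 248 and 214 CPM in WTIEC ileum and at 477 and 309.9 CPM in DDX5ΔIEC ileum. Both DDX5ΔIEC libraries lay above both WTIEC libraries, and DDX5ΔIEC library 1 lay furthest out. The log2 fold change was 0.74 (SE 0.17, unadjusted p = 0.00105, adjusted p = 0.0886, edgeR), a 1.68-fold difference. In the colon Jund was at 335 and 305 CPM in WTIEC and 415 and 281 CPM in DDX5ΔIEC, which overlapped, with a log2 fold change of 0.09 (SE 0.13, adjusted p = 0.82).

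The 2 tissues were set against each other by the interaction of tissue and genotype. Jund had an interaction of 0.65 (SE 0.34, unadjusted p = 0.0883, adjusted p = 1, edgeR), and with the mouse as a block 0.64 with an unadjusted p of 0.00418 and an adjusted p of 0.583. Without one library it ran from 0.30 (without DDX5ΔIEC ileum library 1) to 0.96 (without DDX5ΔIEC ileum library 2 or DDX5ΔIEC colon library 1). A difference of the Jund genotype effect between ileum and colon was therefore not shown by this test. None of the 10 members passed the interaction at the adjusted p-value, where 0.0124% of all genes passed. An unadjusted p-value under 0.05 was found for 1 member, Fosb, beside 4.67% of all genes.

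The Jund value in the ileum depended on single libraries. It was 0.43 without DDX5ΔIEC library 1 and 0.67 (unadjusted p = 0.103) without WTIEC library 2, and the criterion was not met in either case. It was 1.06 (adjusted p = 0.0614) without DDX5ΔIEC library 2, the one with many repeat-like reads, and 0.88 without WTIEC library 1. With the 3 repeat-like genes left out of all libraries it was 0.75. DESeq2 gave 0.75 (adjusted p = 0.0448), and edgeR without the filter on low counts 0.70 (adjusted p = 0.024).

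GC content moved with the genotype difference in the ileum. The Jund transcript, a single exon of 1668 bases at chr8:70698949-70700616 on the plus strand of GRCm38, is 67.1% G and C, and 0.206% of the genes tested in the ileum were at or above that, where the median gene was at 49.1%. The median log2 fold change of ileum genes was −0.11 at a GC content up to 45%, 0.04 between 50 and 55%, and 0.35 for the 60 genes above 65%. Of these 60 genes 13 met the criterion as higher, which is 21.7% beside 3.87% of all genes, and 0 as lower. In the colon the 72 genes above 65% had a median of −0.09, with 3 higher and 6 lower at the criterion. Across genes, Spearman's rho of GC content and log2 fold change was 0.292 in the ileum and 0.0532 in the colon, and genes of one library are not independent replicates.

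**Figure D4:**
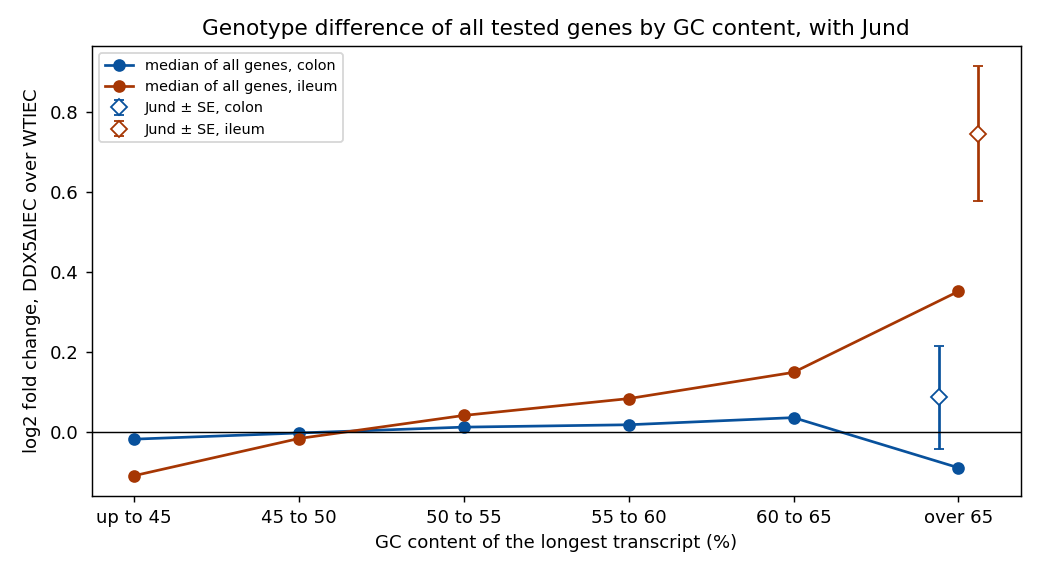
Median log2 fold change, DDX5ΔIEC over WTIEC, of all tested genes in 6 ranges of GC content of the longest transcript, in the colon (blue) and the ileum (brown), with the values of Jund ± SE as open diamonds. The ileum line climbs from −0.11 to 0.35, the colon line ends at −0.09, and Jund in the ileum, at 0.74, lies above the median of its range.

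An alternative chosen after these values were seen took out of each library its trend on GC content and transcript length, in the same fit as the replicate block. The Jund value in the ileum was then 0.41 (unadjusted p = 0.0297, adjusted p = 0.344, edgeR), below the size that the criterion asks for, and in the colon it was 0.09. No 50-base word of the transcript is shared with another gene on its own strand. On the opposite strand, 48.3% of its 50-base words lie in the antisense gene Gm11175, which had 5 to 27 counts a library against 2903 to 7521 for Jund, and without a stated strand setting reads of the 2 genes cannot be told apart where they overlap. The leukocyte markers, at 72.6 and 121 CPM in DDX5ΔIEC ileum and 99.8 and 118 CPM in WTIEC ileum, overlapped between the genotypes. Of 11 tested, 1 met the criterion, beside 7.35% of all genes. It was the lysozyme gene Lyz2, at 2.81 and 2.35 CPM in DDX5ΔIEC ileum against 0.921 and 0.208 CPM in WTIEC ileum (log2 fold change 2.18, SE 0.49, adjusted p = 0.0894, edgeR), and its part in the Jund difference was not tested.

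Within the JUN family, Jund took a larger part in DDX5ΔIEC ileum than in any other library. Its share of the summed per-length level of Jun, Junb and Jund was 48.7 and 50.2% in WTIEC colon, 51 and 45% in DDX5ΔIEC colon, 53.9 and 54.8% in WTIEC ileum and 66.6 and 61.0% in DDX5ΔIEC ileum. As a share of counts it was 42.15% (95% Wilson interval 41.29 to 43.01) and 42.36% (41.23 to 43.50) in WTIEC ileum and 55.22% (54.21 to 56.24) and 48.53% (47.26 to 49.80) in DDX5ΔIEC ileum. The intervals cover counting error only. The genotypes did not overlap in the ileum and did in the colon, and these shares use the same counts as the Jund test above.

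The counts of Jund over those of Junb were 1.48 and 1.79 in WTIEC ileum and 2.62 and 2.41 in DDX5ΔIEC ileum, and over those of Jun they were 1.43 and 1.25 against 2.33 and 1.55. In the colon the ratio to Junb ran from 1.36 to 1.90 and the ratio to Jun from 0.759 to 1.07. In the ileum the DDX5ΔIEC ratios lay above the WTIEC ratios for both partners, with the least gap for Jun in DDX5ΔIEC library 2. Jun transcripts are 55.5% and Junb transcripts 62.6% G and C, both lower than Jund.

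**Figure D5:**
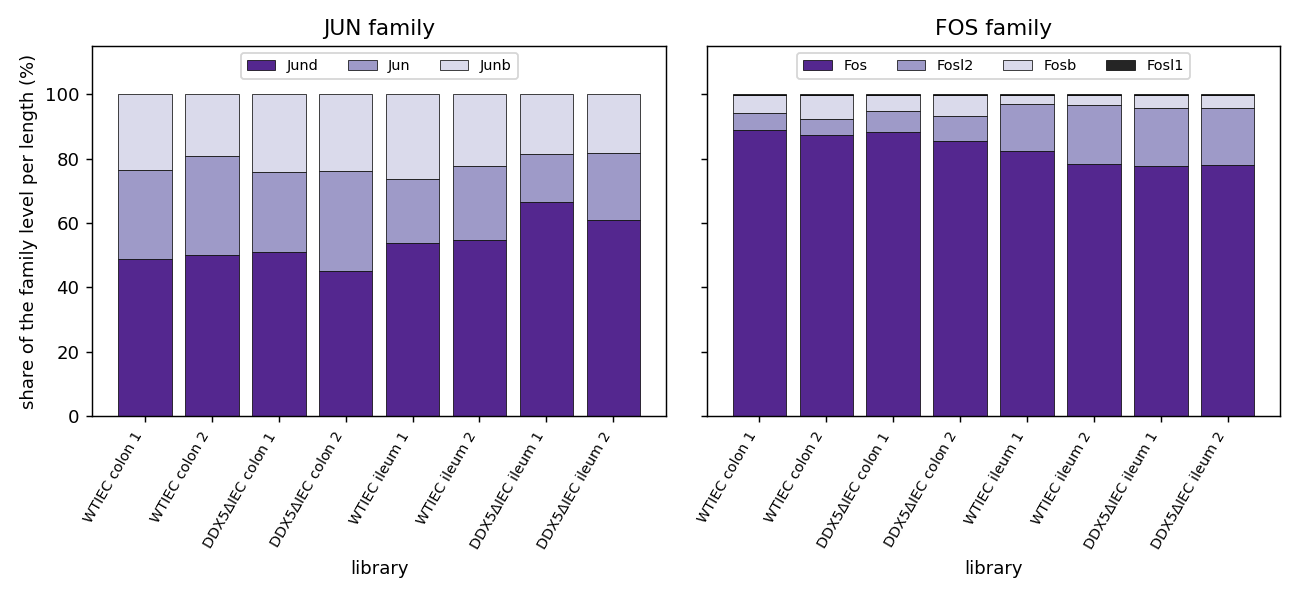
Share of each gene in the summed per-length level of the JUN family (left) and the FOS family (right) in the 8 libraries, stacked to 100%. Jund reaches 61.0 and 66.6% in the DDX5ΔIEC ileum libraries and stays at 45 to 54.8% in the other 6, and Fosl2 takes 14.4 to 18.2% of the FOS family in the ileum against 4.96 to 7.58% in the colon.

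Jun differed little by genotype. In the ileum it was at 173 and 171 CPM in WTIEC and 205 and 200.2 CPM in DDX5ΔIEC, groups that did not overlap, with a log2 fold change of 0.24 (SE 0.14, adjusted p = 0.533, edgeR). In the colon it was 0.06 (SE 0.08, adjusted p = 0.796). Junb had an unadjusted p-value of 0.0138 in the colon with a log2 fold change of 0.31 (SE 0.08, adjusted p = 0.321), yet its groups overlapped, since WTIEC library 1 at 224 CPM lay above DDX5ΔIEC library 2 at 206 CPM, and without the block the unadjusted p-value was 0.18. It was 0.078 and 0.088 without WTIEC colon library 2 or DDX5ΔIEC colon library 1, 0.48 without DDX5ΔIEC colon library 2, and 0.55 without WTIEC colon library 1, where it met the criterion. In the ileum Junb was at 0.12, and at −0.08 with the GC trend taken out.

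Of the FOS genes, Fosl2 stood out in the colon and Fosb differed in sign between tissues. Fosl2 was at 183 and 154 CPM in WTIEC colon and 253 and 213 CPM in DDX5ΔIEC colon, groups that did not overlap, with a log2 fold change of 0.46 (SE 0.08, unadjusted p = 0.00237, adjusted p = 0.246, edgeR), just under the criterion. It exceeded 0.5 without WTIEC colon library 1 (0.58) or without DDX5ΔIEC colon library 2 (0.57), and was 0.34 without WTIEC colon library 2 and 0.33 without DDX5ΔIEC colon library 1. In the ileum it was 0.11 (SE 0.16, adjusted p = 0.852). Its interaction was −0.35 (SE 0.22, adjusted p = 1).

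Fosb was lower in DDX5ΔIEC than in WTIEC colon, 121 and 121 CPM against 128 and 153 CPM, and higher in DDX5ΔIEC than in WTIEC ileum, 59.2 and 46.1 CPM against 43.4 and 36.3 CPM. Groups did not overlap in either tissue. The log2 fold change was −0.22 (SE 0.10, adjusted p = 0.454, edgeR) in the colon and 0.40 (SE 0.14, unadjusted p = 0.0131, adjusted p = 0.258) in the ileum. The colon value was −0.35 without WTIEC library 1 and −0.093 without WTIEC library 2. The ileum value was 0.21 without DDX5ΔIEC library 1 and 0.58 without DDX5ΔIEC library 2, where it met the criterion. The interaction was 0.61 (SE 0.22, unadjusted p = 0.0205, adjusted p = 1). Fos itself was at −0.04 (SE 0.11) in the colon and −0.07 (SE 0.16) in the ileum, and its groups overlapped in both.

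The share of Fos in the FOS family per length was 85.5 to 88.8% in the colon and 77.6 to 82.4% in the ileum. Fosl2 took 4.96 and 5.26% in WTIEC colon and 6.66 and 7.58% in DDX5ΔIEC colon, and 14.4 and 18.2% in WTIEC ileum and 17.9 and 17.5% in DDX5ΔIEC ileum. The counts of Fos were 2.74 to 4.27 times those of Fosl2 in the colon and 1.05 to 1.39 times in the ileum. Fosl1 took at most 0.24% of the family in every library.

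Egr1 was lower in DDX5ΔIEC colon, at 70.5 and 58.3 CPM, than in WTIEC colon, at 87.1 and 69.1 CPM, with a log2 fold change of −0.29 (SE 0.09, unadjusted p = 0.0249, adjusted p = 0.349, edgeR) and overlapping groups. It was −0.12 and −0.16 without WTIEC colon library 1 or DDX5ΔIEC colon library 2, and −0.45 and −0.43 without WTIEC colon library 2 or DDX5ΔIEC colon library 1. In the ileum it was at 0.01 (SE 0.23). Atf3 was at −0.19 (SE 0.16) in the colon and 0.18 (SE 0.14) in the ileum, and Ier2 at −0.09 (SE 0.09) and 0.12 (SE 0.17), none with an unadjusted p-value under 0.05. In the colon the leukocyte markers were at 11.1 and 23.7 CPM in DDX5ΔIEC and 40.9 and 55.9 CPM in WTIEC, with 5 of 10 tested lower at the criterion (by size of the difference first Gzma, Gzmb, Cd8a and Ptprc), beside 3.67% of all genes. The part of these markers in the colon values of the AP-1 and immediate early genes was not tested.

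For 7 of the 10 members, Jun, Junb, Jund, Fos, Fosl2, Atf3 and Ier2, the library numbered 1 was higher than that numbered 2 in all 4 groups. The same held for 9.84% of all 16178 genes. The heat shock gene Hspa1a went the other way, at 16.3 and 125 CPM in WTIEC colon, 9.76 and 74.6 CPM in DDX5ΔIEC colon, 2.81 and 77.8 CPM in WTIEC ileum and 15.4 and 31.9 CPM in DDX5ΔIEC ileum. Hspa1a has the near-identical copy Hspa1b, so its counts are uncertain. Whether libraries of one number shared a harvest day is not stated in the labels.

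Other genes around AP-1 were taken from fixed lists. Of 20 genes for other AP-1 and bZIP partners, Cebpb, a factor of inflammatory gene programs, was higher in DDX5ΔIEC ileum at the criterion, at 21.7 and 12.2 CPM against 7.92 and 8.24 CPM (log2 fold change 1.05, SE 0.22, adjusted p = 0.0686, edgeR). It was the 1 gene of the 18 tested in the ileum that met the criterion, beside 7.35% of all genes. Between tissues, Maf was 6.25 higher in WTIEC ileum on the log2 scale and 5.53 in DDX5ΔIEC ileum, at 292 to 388 CPM in ileum libraries and 3.34 to 8.38 CPM in colon libraries, and Jdp2, a repressor that pairs with JUN proteins, was 4.22 and 5.07 higher. Jdp2 had 164 and 76 counts in WTIEC ileum against 10 and 4 in WTIEC colon. In DDX5ΔIEC it had 64 and 43 in the ileum against 5 and 1 in the colon. The list held 5 higher and 1 lower gene of 18 in WTIEC, and 6 and 1 in DDX5ΔIEC, beside 34.2% and 35.3% of all genes called. Nfe2l2, which encodes NRF2, was lower in both (−0.54 and −0.47, named after its values were seen), while Batf2 (0.82) passed in WTIEC and Mafg (0.57) in DDX5ΔIEC.

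Among 36 other immediate early genes, those that met the genotype criterion were counted in each tissue, and the difference between the counts was not tested. In the colon 5 of 32 tested were lower at the criterion and 1 higher, beside 3.67% and 3.04% of all genes. Their median was −0.19 beside −0.0004 over all genes, and 13 had an unadjusted p-value under 0.05, beside 12% of all genes. Gadd45g, a growth arrest gene, was at 8.16 and 8.60 CPM in DDX5ΔIEC colon against 26.3 and 25.5 CPM in WTIEC colon (log2 fold change −1.63, SE 0.12, adjusted p = 0.0741, edgeR). Socs3, a feedback inhibitor of cytokine signals, was higher, at 8.27 and 18.8 CPM against 5.72 and 4.0 CPM (1.39, SE 0.43, adjusted p = 0.342). Among the other lower ones, the orphan nuclear receptor genes Nr4a2 (−1.04) and Nr4a1 (−0.76) differed most. In the ileum 0 of 32 met the criterion with edgeR, beside 7.35% of all genes, and values ran from −0.86 to 0.53. An unadjusted p-value under 0.05 was found for 4, beside 12.3% of all genes. Of these 4, Klf10 (−0.42 in the colon and −0.43 in the ileum), Sik1 (−0.45 and −0.41) and Tiparp (−0.44 and −0.38) had like values in both tissues, below the size of the criterion. The other, Rhob, was at 0.08 and 0.38.

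Between tissues, 8 of 33 tested immediate early genes of that list were lower and 4 higher in WTIEC ileum, and 7 lower and 6 higher in DDX5ΔIEC ileum, shares near the 34.2% and 35.3% of all genes called. Nr4a1 was at 45.4 and 32.0 CPM in WTIEC colon and 6.82 and 3.46 CPM in WTIEC ileum (−2.88, SE 0.35, adjusted p = 0.000419, edgeR) and also lower in DDX5ΔIEC ileum (−1.89). Socs3 (2.62) was higher, and Klf2 (−1.67) and Dusp1, the phosphatase that switches off MAP kinases (−1.38), were lower in WTIEC ileum. Egr3 (2.50) and Gadd45g (1.57) were higher in DDX5ΔIEC ileum, and Btg2 (−1.22), an antiproliferative gene, was lower. The Egr3 value (SE 0.82, adjusted p = 0.0446, edgeR) rested on 4 and 8 counts in DDX5ΔIEC ileum against 3 and 1 in DDX5ΔIEC colon.

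Of 28 MAP kinase and SRF genes upstream of AP-1, 0 met the genotype criterion with edgeR, of 27 tested in the colon (−0.56 to 0.41) and 26 in the ileum (−0.29 to 0.38), beside 6.71% and 7.35% of all genes. An unadjusted p-value under 0.05 was found for 2 and 1 of them, beside 12% and 12.3% of all genes. Between tissues 9 were higher and 4 lower in WTIEC ileum, and 10 higher and 6 lower in DDX5ΔIEC ileum, beside the same 34.2% and 35.3% of all genes. Rps6ka5, the kinase MSK1 that acts on immediate early gene chromatin, was 1.42 and 0.93 higher on the log2 scale and the kinase gene Map2k4 0.91 and 0.85 higher. In WTIEC Map3k1 (0.81) and Map2k2 (0.75) were also higher, and in DDX5ΔIEC Map3k5 (−1.07) was lower and Map2k2 (0.84) higher.

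The heat shock genes, induced by stress as many members are, held 2 higher genes of 12 tested in DDX5ΔIEC ileum at the criterion, beside 3.87% of all genes. Hsph1, a chaperone of the HSP110 family, was at 109.9 and 149 CPM against 30.8 and 90.0 CPM (log2 fold change 1.28, SE 0.22, adjusted p = 0.0303, edgeR), and Hspa8 was 0.65 higher. In the colon Hsph1 (0.73) and Hspa8 (0.60) were higher and Hspa1a (−0.75) lower at the criterion, of 13 tested, beside 6.71% of all genes. Between tissues 0 of 13 passed in either genotype with edgeR, beside 34.2% and 35.3% of all genes. At an unadjusted p-value under 0.05 there were 1 in WTIEC and 0 in DDX5ΔIEC, beside 43.8% and 45.1% of all genes. A list drawn up for the turnover and partners of JUN proteins held 11 genes. Of these, Fbxl21 was lower in DDX5ΔIEC colon (−1.72, 4 and 4 counts against 12 and 16) and in DDX5ΔIEC ileum (−0.69). Whether Fbxl21 acts on JUN proteins was not tested. Usp28, a deubiquitinase that stabilises JUN, was lower in DDX5ΔIEC ileum, at 10.8 and 9.29 CPM against 16.6 and 15.7 CPM (−0.68, SE 0.17, adjusted p = 0.121, edgeR). Between tissues 4 of the 11 were higher and 3 lower in WTIEC ileum and 3 and 3 in DDX5ΔIEC ileum, beside 34.2% and 35.3% of all genes, with Fbxl21 (3.39 and 4.42) and Trip6 (−1.76 and −1.19) furthest out, then Ncor1 (0.83) and Itch (0.75) in WTIEC and Usp28 (−0.90) and Itch (0.66) in DDX5ΔIEC.

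Among the genes whose log2 CPM followed Jund most closely over the 8 libraries, out of 13101 protein-coding genes, were Sap30bp, Rpp38, B3galt6 and Glmp, with Pearson's r of 0.978 to 0.956. Their transcripts are 46.1 to 54.1% G and C, below that of Jund. Among the other members the highest r with Jund was 0.598, for Junb, and Fos and Jun had 0.369 and 0.362. For Fos the closest were Rps14, Rps29, Rps27, Rpl26 and Ssbp3, with r of 0.994 to 0.990, of which the first 4 encode ribosomal proteins. Atf3 (0.959), Ier2 (0.940), Fosb (0.910) and Jun (0.907) also had a high r with Fos, and Fosl2 a negative one (−0.712). These correlations mix tissue, genotype and mouse, share the same libraries and their depth, and describe likeness only.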

How the data were processed

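RNA of epithelial cells was sequenced by the authors after ribosomal RNA depletion with a stranded kit, aligned to mm10 with STAR 2.6.1a and counted as uniquely mapped reads over exons of GENCODE vM19 with featureCounts. The strand setting of the counting is not given in the sources used here. The deposited tables hold raw counts per gene and a normalized signal (counts divided by a DESeq2 size factor per library). They also hold the authors' own comparisons (log2 fold changes, a test score and p-values from DESeq2 1.18.1), which were not used.

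Raw counts were tested here with edgeR 4.0.16 (quasi-likelihood, R 4.3.3) after a filter on low counts (filterByExpr, minimum count 10) and TMM scaling, with Benjamini-Hochberg adjustment over all genes tested. SE is the absolute log2 fold change over the square root of the F statistic, which is approximate near 0 and at low counts. Genotype was tested within a tissue with the replicate number as a block, since the study's model has a harvest covariate. Tissue and interaction were tested over all 8 libraries as 4 groups. CPM were TMM-scaled over the 8 libraries and divided by the deposited exon length where genes were compared. Headings of the study's tables tie the colon and ileum library of one genotype and number to one mouse, and their deviations correlated at 0.14 and 0.142. The paper describes the mice as 2 pairs of cohoused WTIEC and DDX5ΔIEC littermates. No source says which numbered mice form a pair. The deviations of same-numbered mice of the 2 genotypes correlated at 0.00559 for colon and 0.24 for ileum.

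The members and lists were chosen with earlier results of these data known. From each list the genes that passed were named, at most the 4 with the largest change per comparison, and the 5 genes most like Jund and Fos by Pearson's r. Some genes that this rule names are not reported here. GC content and positions come from GENCODE vM21 (GRCm38), and promoters from RefSeq (GRCm38.p6), which matched 7 of the 10 members, with no entry for Fosl1, Egr1 and Ier2. The alternatives were DESeq2 1.42.0, other scalings, no filter, other blocks, leaving out libraries or the 3 repeat-like genes, and a correction for GC content and length that was chosen after seeing the data. On simulated data with 200 genes changed by 1.5 on the log2 scale, the criterion recovered 97.5% of them for the colon and 99% for the ileum comparison. The adjusted p-value recovered 87% and 93%, and 77% and 70% for tissue in WTIEC and DDX5ΔIEC. For the interaction it recovered 47.5%. In the colon 25 of its 199 calls were unchanged genes. A change of 1.5 is larger than any fitted genotype difference of the 10 genes, so recovery at their sizes was not tested.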

Additional observations from a re-analysis of the deposited data

How the results depend on the processing

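Of 678 values of the 10 genes under the alternatives, 586 kept their direction and their side of the threshold, 28 lost a call, 21 gained one and 43 changed sign. The cause of these changes was not tested. Without the replicate block the ileum value of Egr1 was −0.025, without the filter on low counts −0.028 and in one fit over all libraries −0.029. With the GC and length correction, chosen after seeing the data, the ileum values of Junb, Egr1 and Ier2 were −0.078, −0.054 and −0.039, that of Jund between tissues in DDX5ΔIEC −0.014, and the interaction of Fosl1 −0.10 (−0.039 without the filter). When each library was left out in turn, colon values ran from −0.61 to 0.22 for Atf3, −0.28 to 0.20 for Fos (0.070 without WTIEC library 1), −0.35 to 0.19 for Ier2 (0.052 without DDX5ΔIEC library 2) and −0.20 to 0.36 for Jund. Ileum values ran from −0.36 to 0.42 for Egr1 (−0.24 without DDX5ΔIEC library 2), −0.31 to 0.19 for Fos (0.065 without DDX5ΔIEC library 2), −0.060 to 0.29 for Fosl2, −0.21 to 0.46 for Ier2 and −0.15 to 0.38 for Junb. Tissue values in DDX5ΔIEC ran from −0.32 to 0.068 for Egr1 and −0.17 to 0.48 for Jund. Interactions ran from −0.056 to 0.77 for Atf3, −0.086 to 0.70 for Egr1, −0.30 to 0.20 for Fos, −0.45 to 0.94 for Fosl1, −0.12 to 0.55 for Ier2 and −0.47 to 0.069 for Junb.

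Counts of colon genes at the criterion were 1031, with DESeq2 508, and 608 to 2388 without one library (608 and 672 without WTIEC library 1 or 2, 2388 without DDX5ΔIEC library 2). At the adjusted p-value there were 0 colon genes, 5 without the replicate block, 116 with DESeq2, 16 with upper-quartile scaling, 10 in one fit over all libraries, 22 with the GC and length correction and 0 to 2506 without one library (963 and 2506 without DDX5ΔIEC library 1 or 2). Colon members at the criterion were 0 to 2 without one library, with 2 without WTIEC library 1 and 1 without either DDX5ΔIEC library, and at the adjusted p-value 0 to 3, with 3 without either DDX5ΔIEC library. Ileum genes at the criterion were 1034, with DESeq2 414, and 479 to 1574 without one library (595 and 479 without WTIEC library 1 or 2). At the adjusted p-value they were 98, 1 without the replicate block, 39 with DESeq2, 47 with upper-quartile scaling, 423 without the filter, 20 without the repeat-like genes, 7 in one fit, 289 with the GC and length correction and 1 to 23 without one library (15 without DDX5ΔIEC library 1). Ileum members at the criterion were 1, 0 with the GC and length correction and 0 to 2 without one library, with 2 without DDX5ΔIEC library 2. At the adjusted p-value they were 0, and 1 with DESeq2 or without the filter. Between tissues, 3153 to 6231 genes and 3 to 7 members were called in WTIEC and 3 to 4 members in DDX5ΔIEC without one library. The interaction called 2 genes, 1 with the mouse as replicate block, 17 with DESeq2, 210 without the filter, 1 with the GC and length correction and 0 to 30 without one library. Upper-quartile scaling moved the median tissue difference of all genes in WTIEC by −0.118. Genotype fits without one library had no replicate block. Depth limits Fosl1 most, and its overlap with Ccdc85b also leaves its counts uncertain.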
